A study of Mus musculus with 12 samples.

Results

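Genes that a cell switches on to copy its DNA (S phase) and to divide (G2 and M phase) were followed across the cortex of mouse embryos with and without the transcription factor AP2gamma. The members were 51 named genes of the cell cycle, 23 of S phase and 28 of G2 and M phase, out of 18194 genes that had a probe set of their own on the array. They were chosen by name, and every probe set annotated to one of them alone was read. All 23 S phase genes and 27 of the 28 G2 and M phase genes were measured. For Ccnb1, which encodes cyclin B1, the annotation used here listed no probe set, and it has no value below.

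In an animal cell, E2F factors and cyclin E start S phase by raising the transcripts of the replication machinery: the origin-licensing proteins, the MCM helicase, the DNA polymerases and the enzymes that make nucleotides. A later wave, held back by the DREAM complex earlier in the cycle, supplies the cyclins, mitotic kinases, kinesins and centromere proteins used in G2 and M. In the embryonic cortex these genes are on in dividing radial glia, which line the ventricle, and in basal progenitors, which divide away from it and produce neurons, and they are off in the neurons themselves.

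The arrays came from a caudal and a rostral piece of the cortex at embryonic day 14, from AP2gamma knockout mice (KO) and from wild-type mice (WT). Each of the 4 groups had 3 animals, named by their numbers: 1, 2 and 13 for caudal KO, 4, 6 and 14 for caudal WT, 7, 8 and 15 for rostral KO, and 10, 12 and 16 for rostral WT. The strain, the allele and any driver line are not given in the sources used here, so the cells that lacked AP2gamma are not stated. From each sample, 400 ng of total RNA was amplified, labelled with biotin and hybridised to its own 1-colour array.

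The values are log2 intensities, already normalised between arrays. The array medians ran from 5.21 to 5.22, and 3 arrays per group limit the precision of every comparison. Tfap2c, the gene for AP2gamma, read 7.71, 7.86 and 7.44 in caudal KO and 9.19, 8.84 and 8.64 in caudal WT. In rostral cortex it read 8.11, 8.63 and 8.09 in KO and 9.06, 9.00 and 8.54 in WT, so KO and WT did not overlap caudally and did overlap rostrally. Whether its probe set lies in the deleted part of the gene is not given in the sources used here. Averaged over both regions it differed by -0.91 ± 0.14 (SE, adjusted p = 0.038, limma). Basal progenitor markers were below 0 in KO against WT for 9 of 10 genes, and 2 of them passed the threshold, among them Eomes at -0.56 (adjusted p = 0.038). Over all tested genes, 53.1% were below 0 and 0.0339% passed. Animals 13 to 16 gave 1 array to each group, and animals 6 and 12, both WT, were the only ones with high Xist.

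The 2 lists differed in how often the DNA around the starts of their genes held certain short motifs. RefSeq promoter windows (GRCm38.p6, 250 bases before to 50 after each annotated start) were found for 44 of the 51 members, 48 windows in all. They were searched on both strands for 3 motifs: the cell cycle homology region, or CHR, bound by DREAM (TTTGAA or TTCGAA); the E2F site (TTTGGCGC, TTTGCCGC, TTTCGCGC or TTTCCCGC); and the NF-Y box (CCAAT). A CHR match lay in 80.0% of the G2 and M phase windows (20 of 25), in 17.4% of the S phase windows (4 of 23) and in 19.2% of all 32851 mouse windows. An E2F match lay in 4.0% of the G2 and M phase windows, in 43.5% of the S phase windows (10 of 23) and in 2.26% of all windows. CCAAT was found in 84.0%, 65.2% and 37.4% of the same 3 sets. In the members' windows, 1 pair of matches of different motifs overlapped. Some matches lay after the annotated start, as did the only CHR matches of Aurka, Plk1 and Cenpa. A match is a description of letters, not evidence of binding.

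**Figure D1:**
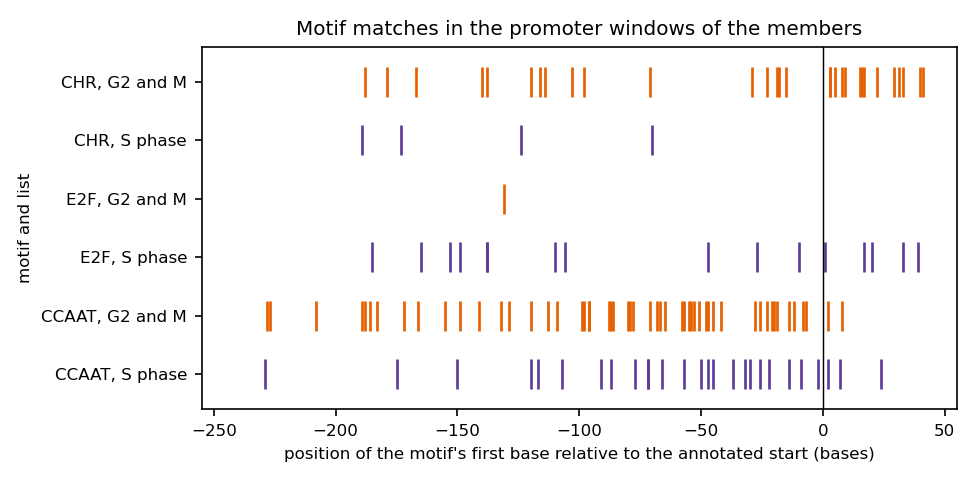
Each tick is a motif match in a promoter window of a member, placed by the position of its first base relative to the annotated start (x axis, in bases); rows give the motif and the list, with G2 and M phase in orange and S phase in purple. CHR matches are dense in the G2 and M phase row (20 of 25 windows) and E2F matches in the S phase row (10 of 23 windows).

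The 150 bases before the start are shown for 4 members, 5′ to 3′ on the strand of the gene, with motif matches in capitals. Uhrf1 and Pola1 are S phase genes and Ube2c is a G2 and M phase gene. All were among the members of smallest p between caudal and rostral cortex. None of them passed the threshold of an adjusted p of 0.05 in the fit by group alone. Cdk1 had the smallest p between KO and WT and did not pass there. It was the only one of the 24 G2 and M phase members with a window to hold an E2F match. The stretches lie at chr17:56303187-56303336 (plus strand) for Uhrf1, chrX:93632156-93632305 (minus strand) for Pola1, chr2:164769779-164769928 (plus strand) for Ube2c and chr10:69352913-69353062 (minus strand) for Cdk1. Uhrf1 has a second annotated start, not shown, whose window holds an E2F match as well as CCAAT boxes.
Uhrf1: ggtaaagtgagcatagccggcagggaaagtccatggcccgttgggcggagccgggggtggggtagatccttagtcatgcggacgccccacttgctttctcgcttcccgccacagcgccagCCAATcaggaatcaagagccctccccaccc
Pola1: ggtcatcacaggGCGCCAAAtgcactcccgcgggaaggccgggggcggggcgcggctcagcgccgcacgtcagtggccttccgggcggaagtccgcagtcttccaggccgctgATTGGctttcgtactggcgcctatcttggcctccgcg
Ube2c: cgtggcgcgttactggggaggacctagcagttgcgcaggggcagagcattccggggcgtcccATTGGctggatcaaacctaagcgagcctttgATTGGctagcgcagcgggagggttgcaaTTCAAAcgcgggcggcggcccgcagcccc
Cdk1: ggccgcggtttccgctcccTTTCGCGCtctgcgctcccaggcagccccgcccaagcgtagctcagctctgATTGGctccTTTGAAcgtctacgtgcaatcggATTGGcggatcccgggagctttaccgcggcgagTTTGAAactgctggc
The Uhrf1 stretch holds a CCAAT box and neither of the other motifs. In Pola1 the capitals mark an E2F site and a CCAAT box, both on the opposite strand. In Ube2c they mark a CHR and a pair of CCAAT boxes, and in Cdk1 an E2F site, CHR matches and CCAAT boxes together.

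The first comparison asked whether the cell cycle transcripts differ when AP2gamma is missing. None of the 50 measured members passed the threshold of an adjusted p of 0.05 in KO against WT, whether averaged over both regions, in caudal cortex or in rostral cortex (limma, adjusted over 11785 genes). In the average, 4 of all tested genes passed (0.0339%), and in each region alone 0 did (0%). At an unadjusted p under 0.05, 1 member was lower in the average (against 4% of all genes), 1 higher in caudal cortex (1.93%) and 1 lower in rostral cortex (3.44%). A piece of tissue was measured, so fewer cells of a type and less RNA per cell cannot be told apart in any of these values.

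The differences were small. In the average over both regions, 13 of 23 S phase genes and 20 of 27 G2 and M phase genes were below 0, with medians of -0.04 and -0.05 on the log2 scale, against 53.1% of all genes and their median of -0.01. All 3 KO arrays lay apart from all 3 WT arrays for 1 member above (Ccne2) and 1 below (Pola1) in caudal cortex, against 3.84% and 3.67% of all genes, and for 1 above (Uhrf1) and 1 below (Cdk1) in rostral cortex, against 5.46% and 7.5%.

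In caudal cortex, 16 of 23 and 21 of 27 were below 0 (50.5% of all genes), with medians of -0.05 and -0.06. Rostrally 12 of 23 and 16 of 27 were below 0 (55% of all genes), with medians of 0.00 and -0.03. For 48 of the 50 members, the 95% interval of the average KO minus WT difference lay within a fold of 1.5 either way. The exceptions were Fen1 and Tyms, whose intervals reached -0.68 and 0.64. The interval lay within that fold for 43 members in caudal cortex and for 38 in rostral cortex, where fewer arrays stand behind each value.

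**Figure D2:**
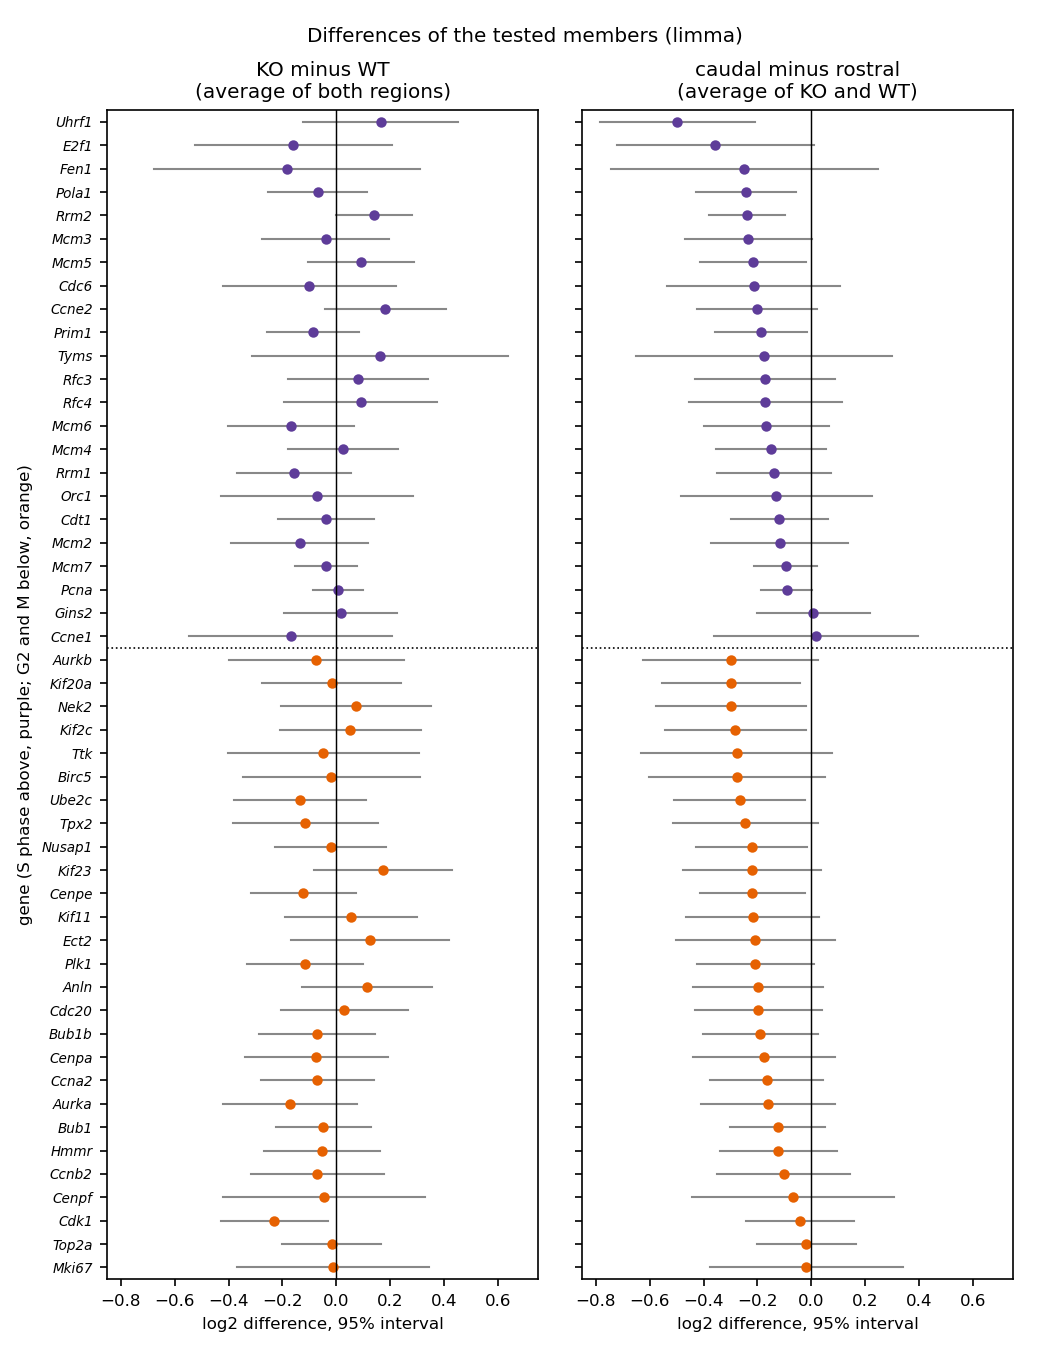
Log2 differences with 95% intervals for each of the 50 measured members (rows; S phase in purple, G2 and M phase in orange): KO minus WT averaged over both regions on the left, caudal minus rostral averaged over KO and WT on the right. On the left the points scatter about 0, with 33 of 50 below it; on the right 48 of 50 lie below it.

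The median KO minus WT difference changed sign between the sets of animals. Among animals 1 to 12, 24 of 27 G2 and M phase genes were below 0 with a median of -0.13, and 17 of 23 S phase genes with a median of -0.05. Among animals 13 to 16, 1 array per group and so with no test, 2 of 27 G2 and M phase genes were below 0 with a median of 0.11, and 8 of 23 S phase genes with a median of 0.10. In all, 5 of 27 G2 and M phase genes and 12 of 23 S phase genes had the same sign in both sets. Single arrays turned the medians as well: without caudal WT animal 4 the S and the G2 and M phase medians were 0.01 and 0.05 in the average and 0.04 and 0.09 in caudal cortex. Without rostral WT animal 12 they were 0.05 and 0.08 in rostral cortex, and the G2 and M phase median was 0.01 in the average. Without caudal KO animal 13 the S phase median was 0.01 in the average and the G2 and M phase median 0.03 in caudal cortex.

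The effect of the knockout was next compared between regions, as the KO minus WT difference in caudal cortex minus that in rostral cortex. None of the 50 members passed, and 0% of all genes did; at an unadjusted p under 0.05 no member was called, against 3.04% of all genes. Of the S phase genes 16 of 23 and of the G2 and M phase genes 17 of 27 were below 0, with medians of -0.04 and -0.09, where 46.7% of all genes were below 0. Single arrays turned these medians: they were 0.06 and 0.09 without caudal WT animal 4 and 0.06 and 0.01 without rostral WT animal 16, and the G2 and M phase median was 0.02 without caudal KO animal 13. They were -0.11 and -0.21 without caudal WT animal 14 and -0.14 and -0.20 without rostral WT animal 12.

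Caudal cortex was then set against rostral cortex, averaged over KO and WT. Here 48 of the 50 members were below 0, that is, read lower caudally: 21 of 23 S phase genes with a median of -0.17 and all 27 measured G2 and M phase genes with a median of -0.21. Over all genes 55% were below 0 and the median was -0.02. Without caudal WT animal 14 the G2 and M phase median was -0.13. No single member passed the threshold, while 526 of all tested genes did (4.46%). At an unadjusted p under 0.05, 11 members were lower caudally, 5 of S phase and 6 of G2 and M phase, against 11.1% of all genes, and none was higher.

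Both genotypes gave this direction. In KO, 21 of 23 S phase genes (median -0.17) and 25 of 27 G2 and M phase genes (median -0.26) were below 0, against 52.8% of all genes. In WT, 22 of 23 (median -0.14) and all 27 measured (median -0.16) were below 0, against 55.5%. The WT medians moved with single arrays: they were -0.04 and -0.03 without caudal WT animal 14, -0.06 and -0.06 without rostral WT animal 12, -0.24 and -0.31 without caudal WT animal 4, and -0.24 and -0.24 without rostral WT animal 16. In KO the G2 and M phase median was -0.17 without caudal KO animal 13. None passed in KO, where 112 genes did (0.95%), or in WT, where 111 did (0.942%). At an unadjusted p under 0.05, 6 members were lower in KO (8% of all genes) and 2 in WT (7.07%). All 3 caudal arrays lay below all 3 rostral arrays for 20 members in KO, 7 of S phase and 13 of G2 and M phase, against 12.1% of all genes. In WT this held for 2 S phase members and no G2 and M phase member, against 8.99%. Over KO and WT together it held for 0 members, against 3.4%.

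With animals 13 to 16 entered as a block, 4 members passed the threshold between caudal and rostral cortex, all lower caudally, against 5.32% of all genes. They were Rrm2 (adjusted p = 0.019), Uhrf1 (0.022), Ube2c (0.034) and Nusap1 (0.040). In KO alone Uhrf1 passed with the block (adjusted p = 0.037), against 1.97% of all genes lower. Within animals 1 to 12, 21 of 23 S phase genes (median -0.14) and 25 of 27 G2 and M phase genes (median -0.15) were below 0. Within animals 13 to 16, 21 of 23 (median -0.22) and all 27 measured (median -0.32) were below 0, again with no test. These arrays also differed over all tested genes. The mean deviation from each gene's mean over the 12 arrays was -0.11 in caudal KO animal 13 and -0.07 in caudal WT animal 14. It was -0.01 in rostral KO animal 15 and 0.02 in rostral WT animal 16. Among animals 1 to 12 it ran from -0.02 to 0.03 caudally and from 0.03 to 0.04 rostrally. The part of this shift in the members' medians was not tested.

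Some transcripts of neighbouring tissue also differed between the pieces. Over all genes, 55% were below 0 in this comparison and 4.46% passed in either direction. Of the ganglionic eminence markers, which belong to the ventral part of the forebrain, 6 of 7 measured were lower caudally and 3 passed the threshold, Dlx2 among them (-1.06, adjusted p = 0.0039). Their mean deviation per array ran from -0.83 to -0.04 in caudal KO and from -0.75 to -0.04 in caudal WT, and from 0.09 to 1.14 in rostral KO and 0.07 to 0.59 in rostral WT. Microglia markers were lower caudally for 5 of 5 measured genes and none passed. All 5 measured meninges markers were also below 0 (median -0.13) and none passed. In WT alone 3 of 5 of them were above 0 (median 0.11). Their mean deviation was 2.34 in rostral KO animal 15 and between -0.47 and 0.45 on the other arrays. Vascular markers were below 0 for 4 of 8 genes (median 0.01) and red blood cell markers for 2 of 3 measured (median -0.14), and none passed.

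The hem and choroid plexus, which border the cortex at the midline, had 4 of 7 measured markers below 0 between regions (median -0.52), and Otx2 passed (adjusted p = 0.0082). Otx2 averaged 0.53 in caudal KO and 2.78 in caudal WT, both below 5.21, the median of the table, and 6.70 in rostral KO and 7.21 in rostral WT. The mean deviation of this list ran from -2.31 to 0.19 in caudal KO and from -1.18 to 1.83 in caudal WT, and from -0.07 to 0.76 in rostral KO and 0.25 to 0.84 in rostral WT. In KO against WT all 7 were below 0, with a median of -0.82 in the average and -1.41 in caudal cortex, and none passed.

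Averaged over KO and WT, markers of the cortical cells themselves had medians near 0 between regions. In each list 1 gene passed the threshold, all lower caudally, against 3.21% of all genes lower. Radial glia markers had 6 of 11 below 0 and a median of -0.05, and Pax6, a transcription factor of these cells, passed (-0.42, adjusted p = 0.0017). Basal progenitor markers had 5 of 10 below 0 and a median of -0.03, and Insm1 passed (-0.34, adjusted p = 0.0084). Young neuron markers had 6 of 10 below 0 and a median of -0.06, and Tbr1 passed (-0.63, adjusted p = 0.013). The genotypes were not alike. The group mean of the radial glia deviations was -0.05 in caudal and 0.12 in rostral KO, and -0.04 and -0.03 in WT. For basal progenitor markers it was -0.24 and -0.11 in KO, and 0.15 and 0.21 in WT. For young neuron markers it was -0.0045 and 0.09 in KO, and -0.08 and -0.0001 in WT. The difference between KO effects passed for no gene of these lists. The part of these tissues and cells in the values of the members was not tested.

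On some arrays the members moved together. For each array, the deviations of the members from their own means over the 12 arrays were averaged. For G2 and M phase genes this mean was -0.08, -0.03 and -0.26 in the 3 animals of caudal KO, in the order given above, against 0.25, -0.11 and -0.34 in those of caudal WT. The rostral KO animals had 0.09, 0.08 and 0.10, and the rostral WT animals 0.07, 0.32 and -0.09. The WT animals of one region thus spread more widely than the KO animals beside them.

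For S phase genes the same mean was -0.08, -0.02 and -0.22 in caudal KO and 0.13, -0.08 and -0.27 in caudal WT. It was 0.10, 0.09 and 0.06 in rostral KO and 0.07, 0.29 and -0.07 in rostral WT. The standard deviation between animals of a group was 0.10 in caudal KO, 0.20 in caudal WT, 0.02 in rostral KO and 0.18 in rostral WT for S phase genes. For G2 and M phase genes it was 0.12, 0.30, 0.01 and 0.20 in the same 4 groups. With 3 animals a group, no test of this difference in spread was made.

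**Figure D3:**
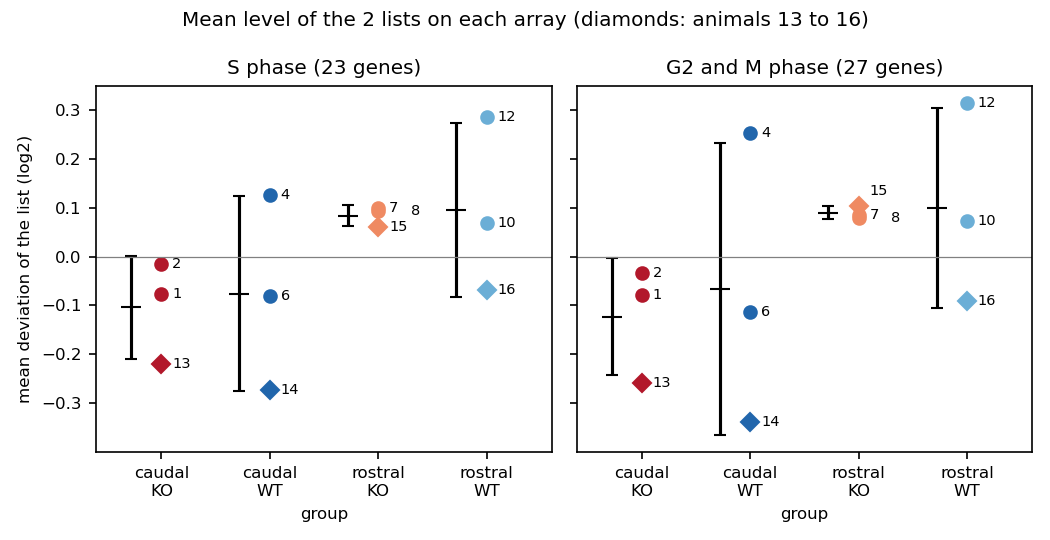
Mean deviation of each list on each array (y axis, log2; 0 is the mean over the 12 arrays), with 1 point per animal and the animal number beside it; the black bars are the group mean ± SD (n = 3) and diamonds mark animals 13 to 16. The rostral KO points lie within 0.06 to 0.10 in both lists, while caudal WT runs from -0.34 to 0.25 for G2 and M phase genes.

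Single animals carried nearly the whole list with them. In caudal WT animal 4, 22 of 23 S phase genes and 27 of 27 G2 and M phase genes lay above their group mean, as did 52% of all genes. In rostral WT animal 12 all 23 and all 27 did, against 52.5% of all genes. In caudal WT animal 14, 20 of 23 and 25 of 27 lay below their group mean, against 58.6% of all genes, and in rostral WT animal 16 21 of 23 and 26 of 27, against 51.5%. Caudal KO animal 13 had 18 of 23 and 23 of 27 below, against 63.1%. The remaining arrays were not all so one-sided. Of the 50 members, 28, 24 and 18 lay above their group mean in rostral KO animals 7, 8 and 15. In caudal WT animal 6 it was 26, in rostral WT animal 10 it was 21, and in caudal KO animals 1 and 2 it was 33 and 40. Between caudal WT animals 4 and 14 the median gap was 0.61 for G2 and M phase genes and 0.37 for S phase genes, and between rostral WT animals 12 and 16 it was 0.46 and 0.31. These gaps exceed the median caudal minus rostral difference of either list.

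Other cell markers on the same arrays read as follows. The mean deviation of the young neuron markers was -0.23 in caudal WT animal 4, where the members were high, and -0.04 in animal 14, where they were low. In rostral WT it was -0.07 in animal 12 and 0.07 in animal 16. Radial glia markers had 0.08 and -0.15 in animals 4 and 14, and -0.02 and -0.11 in animals 12 and 16. Basal progenitor markers had 0.28 and 0.05 in animals 4 and 14, and 0.26 and 0.13 in animals 12 and 16. Their part in the spread was not tested.

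**Figure D4:**
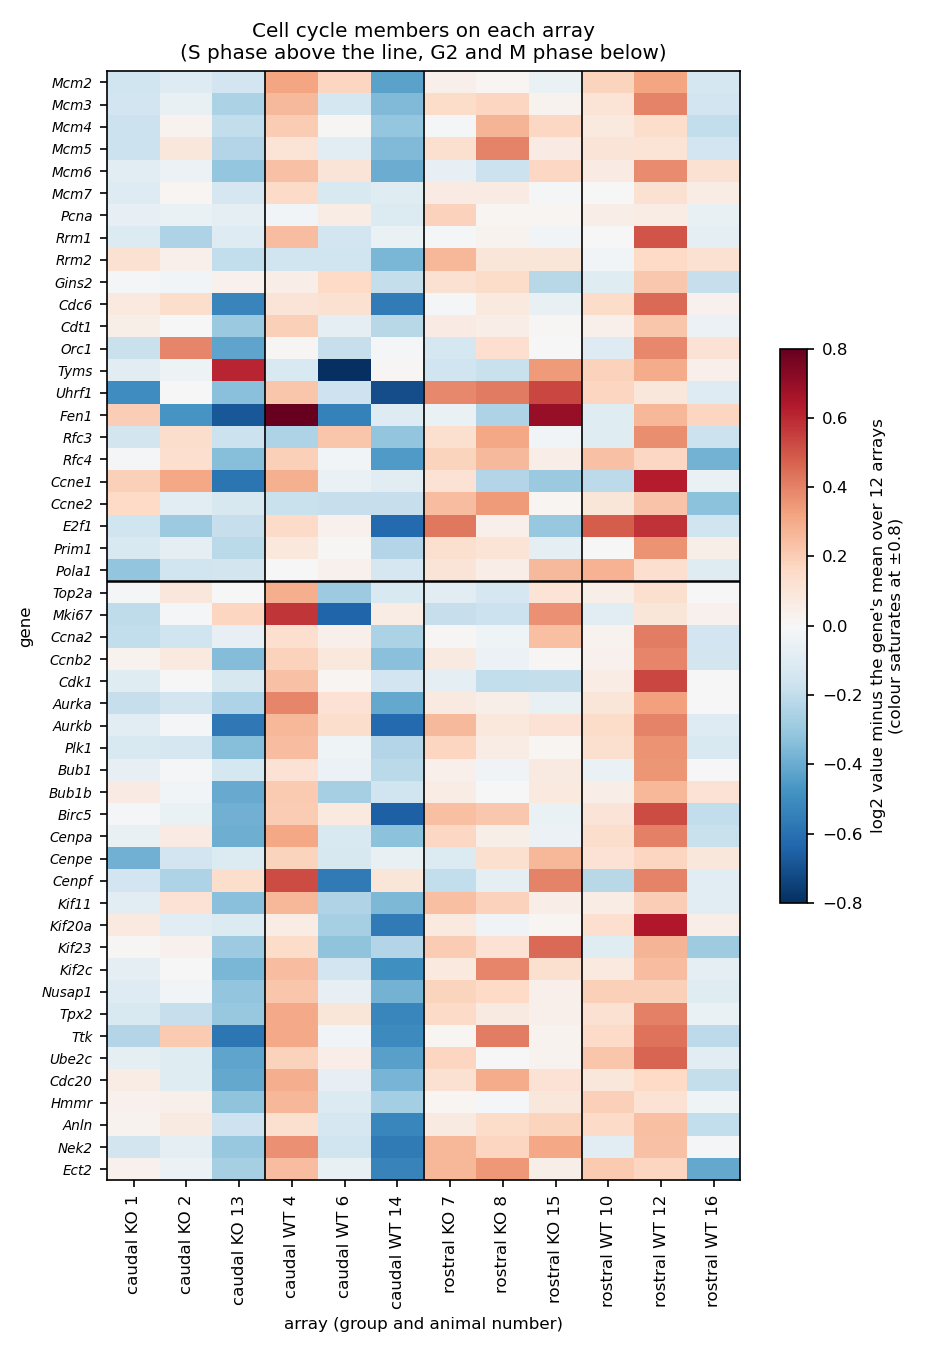
Each row is a measured member and each column an array; colour gives the log2 value minus the mean of that gene over the 12 arrays, red above and blue below, saturated at ±0.8. Columns for caudal WT animal 4 and rostral WT animal 12 are red over nearly all rows, and those for caudal KO animal 13 and caudal WT animal 14 are blue.

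The members are described below by role, with the values in order of animal number within each group. Origin licensing and the helicase come first. Of the 10 such genes, 7 were below 0 in KO against WT and 9 in caudal against rostral cortex, with medians of -0.04 and -0.14. Mcm2, a subunit of the MCM helicase that unwinds DNA ahead of the fork, read 8.63, 8.68 and 8.63 in caudal KO and 9.10, 8.96 and 8.35 in caudal WT. In rostral cortex it read 8.83, 8.80 and 8.73 in KO and 8.96, 9.10 and 8.64 in WT. KO lay inside the WT range in both regions, and the average difference was -0.14 ± 0.12 (adjusted p = 0.84).

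Mcm5, another subunit, read 10.88, 11.14 and 10.82 in caudal KO, 11.17, 10.96 and 10.70 in caudal WT, 11.19, 11.45 and 11.12 in rostral KO, and 11.16, 11.16 and 10.90 in rostral WT. Caudal KO overlapped rostral KO by little, and the caudal minus rostral difference in KO was -0.30 ± 0.13 (adjusted p = 0.34). Mcm6 read 9.82, 9.86 and 9.59 in caudal KO, 10.13, 10.00 and 9.50 in caudal WT, 9.83, 9.73 and 10.07 in rostral KO, and 9.97, 10.28 and 10.02 in rostral WT. KO and WT of Mcm6 overlapped in both regions, and KO minus WT in rostral cortex was -0.21 ± 0.15 (adjusted p = 0.82). The remaining members of this role were Mcm3, Mcm4, Mcm7, the helicase partner Gins2, and the loading factors Cdc6, Cdt1 and Orc1. Their caudal minus rostral differences ran from -0.23 for Mcm3 to 0.01 for Gins2.

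Mcm2 has a second probe set that reads differently. It gave 8.26, 8.41 and 8.02 in caudal KO and 8.55, 8.25 and 8.36 in caudal WT, and 9.81, 8.81 and 9.79 in rostral KO and 8.57, 8.92 and 8.44 in rostral WT. All 3 rostral KO arrays lay above all caudal arrays. When each probe set was tested on its own, this one passed for caudal minus rostral in the average (-0.75, adjusted p = 0.026) and in KO (-1.24, adjusted p = 0.037), whereas the brighter probe set gave -0.12 in the average. It was singled out after its values were seen.

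Polymerase and fork genes make up the next 7 members. All 7 were below 0 in caudal against rostral cortex, with a median of -0.19, and 3 of 7 in KO against WT, with a median of 0.01. Uhrf1, which reads hemimethylated DNA behind the fork and brings in the maintenance methyltransferase, had the largest regional difference of the members. It read 9.26, 9.76 and 9.42 in caudal KO and 9.98, 9.59 and 9.05 in caudal WT, and 10.15, 10.17 and 10.29 in rostral KO and 9.93, 9.85 and 9.65 in rostral WT. All caudal KO arrays lay below all rostral KO arrays, while caudal WT overlapped rostral WT through animal 4.

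The caudal minus rostral difference of Uhrf1 was -0.50 ± 0.13 in the average (adjusted p = 0.052), -0.72 ± 0.19 in KO (0.092) and -0.27 ± 0.19 in WT (0.74). Its difference between KO effects was -0.45 and did not pass, so WT and KO are not shown to differ here. In rostral cortex all KO arrays lay above all WT arrays, by 0.39 ± 0.19 (adjusted p = 0.75). The average caudal minus rostral difference passed under 4 of 27 alternatives, with adjusted p from 0.0094 to 0.33. Without caudal WT animal 4 it was -0.61 (adjusted p = 0.0094). A second probe set of Uhrf1 gave -0.01 for caudal minus rostral, so the difference was seen by 1 of its 2 probe sets.

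Pola1, the catalytic subunit of the polymerase that starts new strands, read 7.65, 7.81 and 7.82 in caudal KO, 7.96, 8.00 and 7.83 in caudal WT, 8.07, 8.02 and 8.22 in rostral KO, and 8.24, 8.10 and 7.87 in rostral WT. Caudal KO lay below every other group, WT included. The caudal minus rostral difference was -0.24 ± 0.09 in the average (adjusted p = 0.15) and -0.34 ± 0.12 in KO (0.23), and KO minus WT in caudal cortex was -0.17 ± 0.12 (0.998). Prim1, the primase that works with it, read 10.05, 10.10 and 9.96 in caudal KO, 10.26, 10.18 and 9.94 in caudal WT, 10.30, 10.28 and 10.10 in rostral KO, and 10.17, 10.53 and 10.22 in rostral WT. Its caudal minus rostral difference was -0.19 ± 0.08 (adjusted p = 0.23).

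Pcna, the clamp that holds polymerases on DNA, varied least among these genes by its SE. It read 12.62, 12.63 and 12.61 in caudal KO, 12.66, 12.74 and 12.58 in caudal WT, 12.87, 12.70 and 12.70 in rostral KO, and 12.74, 12.75 and 12.62 in rostral WT. The KO minus WT difference was 0.01 ± 0.04 (adjusted p = 0.99), with a 95% interval from -0.09 to 0.10. Between regions it was -0.09 ± 0.04 (0.31). Fen1, Rfc3 and Rfc4 had caudal minus rostral differences of -0.25, -0.17 and -0.17, none past the threshold.

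Nucleotide synthesis had 3 members, all below 0 between regions. Rrm2, the regulated subunit of ribonucleotide reductase, read 11.69, 11.61 and 11.37 in caudal KO, 11.41, 11.41 and 11.21 in caudal WT, 11.84, 11.67 and 11.67 in rostral KO, and 11.55, 11.73 and 11.70 in rostral WT. All caudal WT arrays lay below all rostral WT arrays, and only caudal KO animal 1 exceeded the lowest rostral KO arrays. The caudal minus rostral difference was -0.24 ± 0.07 in the average (adjusted p = 0.058) and -0.31 ± 0.09 in WT (0.16). Rrm2 was also the member of smallest p between KO and WT in caudal cortex, at 0.21 ± 0.09 (adjusted p = 0.998), with caudal KO animal 13 inside the WT range.

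Rrm1, the large subunit of the same enzyme, went the other way between genotypes, at -0.16 ± 0.10 (adjusted p = 0.78), against 0.14 ± 0.07 (0.67) for Rrm2. It read 9.87, 9.73 and 9.87 in caudal KO, 10.23, 9.82 and 9.93 in caudal WT, 9.96, 10.00 and 9.95 in rostral KO, and 9.97, 10.48 and 9.91 in rostral WT. The highest values were those of WT animals 4 and 12, and without animals 4, 14 and 12 the difference was 0.02. Tyms, thymidylate synthase, was dim, at 5.31, 5.37 and 6.01 in caudal KO, 5.28, 4.52 and 5.41 in caudal WT, 5.25, 5.23 and 5.75 in rostral KO, and 5.59, 5.70 and 5.44 in rostral WT. These values straddle 5.21, the median of the whole table, and KO minus WT in caudal cortex was 0.49 ± 0.31 (adjusted p = 0.998).

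Of the 3 regulators of S phase entry, Ccne2, a cyclin E, read 8.21, 7.96 and 7.92 in caudal KO, 7.87, 7.86 and 7.87 in caudal WT, 8.30, 8.39 and 8.06 in rostral KO, and 8.15, 8.28 and 7.72 in rostral WT. Caudal KO lay above caudal WT on all arrays, and the average KO minus WT difference was 0.18 ± 0.10 (adjusted p = 0.76). E2f1, an activating E2F factor, read 7.20, 7.08 and 7.18 in caudal KO, 7.52, 7.40 and 6.74 in caudal WT, 7.79, 7.41 and 7.06 in rostral KO, and 7.85, 7.95 and 7.21 in rostral WT. Its regional difference was larger than most, -0.36 ± 0.17 in the average (adjusted p = 0.30), with overlapping groups. Ccne1, the other cyclin E, was 1 of the 2 members above 0 between regions, at 0.02.

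The G2 and M phase genes open with the cyclins and their kinase, all 3 below 0 in KO against WT. Cdk1, the kinase that drives entry into mitosis, read 10.19, 10.28 and 10.16 in caudal KO and 10.52, 10.30 and 10.14 in caudal WT, and 10.21, 10.09 and 10.09 in rostral KO and 10.34, 10.82 and 10.29 in rostral WT. Rostrally the KO arrays were all lower than the WT arrays, and in caudal cortex the groups overlapped. The KO minus WT difference was -0.23 ± 0.09 in the average (adjusted p = 0.60), -0.35 ± 0.13 in rostral cortex (0.66) and -0.11 ± 0.13 in caudal cortex (0.998). It was -0.30 among animals 1 to 12 and -0.08 among animals 13 to 16. The cyclins Ccna2 and Ccnb2 both had -0.07 in the average.

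Between regions Cdk1 differed by -0.04 ± 0.09 (adjusted p = 0.87), with a 95% interval from -0.24 to 0.16. The chromosome proteins most used to mark dividing cells also had small regional values. Mki67, the Ki-67 antigen that coats mitotic chromosomes, read 10.32, 10.51 and 10.70 in caudal KO, 11.09, 9.88 and 10.58 in caudal WT, 10.34, 10.35 and 10.89 in rostral KO, and 10.44, 10.62 and 10.56 in rostral WT. Caudal WT alone spanned all the other values. The difference was -0.01 ± 0.17 for KO minus WT (95% interval -0.37 to 0.34) and -0.02 ± 0.17 for caudal minus rostral.

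Top2a, the topoisomerase that untangles sister chromatids, read 11.08, 11.18 and 11.09 in caudal KO, 11.39, 10.80 and 10.97 in caudal WT, 11.01, 10.96 and 11.20 in rostral KO, and 11.14, 11.22 and 11.10 in rostral WT. Its differences were -0.02 ± 0.09 both for KO minus WT (adjusted p = 0.98) and for caudal minus rostral (0.95). The intervals of both genes include the median regional difference of the list, so a difference from the other members is not shown. Cenpf, a kinetochore protein, had -0.07 ± 0.17 between regions.

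Cenpe, the kinetochore motor, read 7.77, 8.01 and 8.05 in caudal KO, 8.34, 8.03 and 8.10 in caudal WT, 8.05, 8.29 and 8.42 in rostral KO, and 8.27, 8.33 and 8.25 in rostral WT. Caudal KO held the lowest value, and the caudal minus rostral difference was -0.22 ± 0.09 in the average (adjusted p = 0.22) and -0.31 ± 0.13 in KO (0.32). The chromosomal passenger genes Aurkb and Birc5 had -0.30 and -0.28 between regions, and Cenpa, the centromeric histone, -0.18. A second, dimmer probe set of Cenpa had KO values of 6.34, 4.33 and 6.12 in caudal and 6.33, 4.60 and 6.54 in rostral cortex, against WT values of 4.52, 3.77 and 4.21 and of 4.39, 2.07 and 3.38. It exceeded 5.21, the median of the table, on 4 arrays, all KO, and was tested only through them; all WT values lay below 5.21, so no fold is given. It was singled out after its values were seen.

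Among the checkpoint and mitotic kinases, 5 of 6 were below 0 in KO against WT and all 6 in caudal against rostral cortex, with medians of -0.06 and -0.20. Aurka, which builds spindle poles, read 8.56, 8.60 and 8.50 in caudal KO, 9.13, 8.86 and 8.33 in caudal WT, 8.81, 8.79 and 8.68 in rostral KO, and 8.84, 9.07 and 8.74 in rostral WT. KO lay within the range of WT caudally, and the average KO minus WT difference was -0.17 ± 0.12 (adjusted p = 0.80). Plk1, a kinase of several mitotic steps, read 8.63, 8.62 and 8.42 in caudal KO, 9.00, 8.72 and 8.52 in caudal WT, 8.93, 8.82 and 8.77 in rostral KO, and 8.89, 9.12 and 8.64 in rostral WT. All caudal KO arrays were below all rostral KO arrays, a difference of -0.28 ± 0.14 (adjusted p = 0.42), and KO minus WT in caudal cortex was -0.19 ± 0.14 (adjusted p = 0.998).

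Nek2, a centrosome kinase, read 8.43, 8.50 and 8.27 in caudal KO, 8.94, 8.42 and 8.01 in caudal WT, 8.84, 8.75 and 8.89 in rostral KO, and 8.49, 8.81 and 8.57 in rostral WT. Its caudal minus rostral difference was -0.43 ± 0.18 in KO, the largest of the G2 and M phase list there (adjusted p = 0.34), and -0.30 ± 0.13 in the average (0.25). Without caudal WT animal 4 the average was -0.42 and passed (adjusted p = 0.029). The checkpoint kinases Bub1, Bub1b and Ttk had -0.12, -0.19 and -0.28 between regions.

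The kinesin and spindle genes were all below 0 between regions, with a median of -0.22, and 4 of 7 were below 0 between genotypes. Kif20a, a kinesin of the central spindle, read 8.38, 8.21 and 8.19 in caudal KO, 8.36, 8.03 and 7.73 in caudal WT, 8.38, 8.27 and 8.31 in rostral KO, and 8.43, 8.94 and 8.35 in rostral WT. The WT groups lay apart but for animals 4 and 16, and the caudal minus rostral difference was -0.53 ± 0.17 in WT (adjusted p = 0.20), -0.06 ± 0.17 in KO (0.92) and -0.30 ± 0.12 in the average (0.21). The difference between KO effects was 0.47 ± 0.24 (adjusted p = 0.999), so WT and KO are not shown to differ here.

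Kif23, another kinesin of the central spindle, read 8.27, 8.29 and 7.97 in caudal KO, 8.40, 7.94 and 8.02 in caudal WT, 8.46, 8.37 and 8.71 in rostral KO, and 8.16, 8.53 and 7.98 in rostral WT. It had the highest KO minus WT value of the list, 0.17 ± 0.12 (adjusted p = 0.80). Kif2c, Nusap1, Tpx2, Kif11 and Hmmr, motor and spindle assembly proteins, had caudal minus rostral differences of -0.28, -0.22, -0.25, -0.22 and -0.12.

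**Figure D5:**
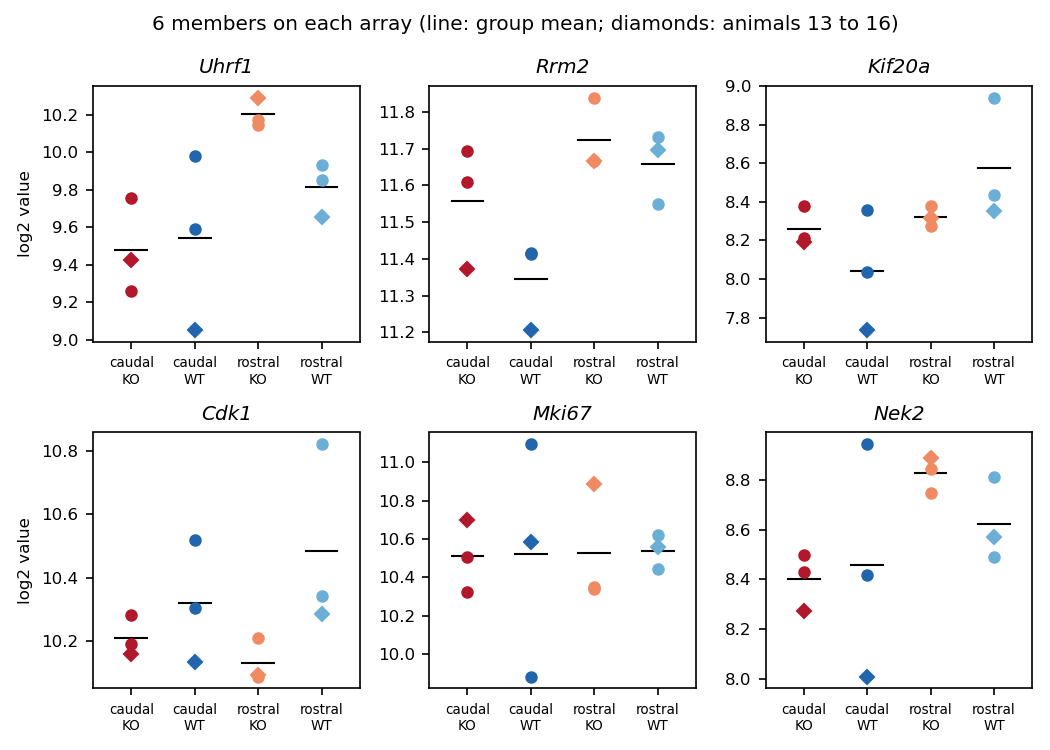
Log2 values (y axis, a scale for each panel) of 6 members in each group, with 1 point per animal, lines at the group means and diamonds for animals 13 to 16. Uhrf1 and Nek2 are lower in caudal KO than in rostral KO on all arrays, Cdk1 is lower in rostral KO than in rostral WT on all arrays, and the Mki67 groups overlap.

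The last roles are the triggers of anaphase and cytokinesis. Ube2c, the ubiquitin-conjugating enzyme of the anaphase-promoting complex, read 11.25, 11.23 and 10.91 in caudal KO, 11.51, 11.38 and 10.90 in caudal WT, 11.50, 11.33 and 11.36 in rostral KO, and 11.56, 11.80 and 11.24 in rostral WT. Its caudal minus rostral difference was alike in KO (-0.26 ± 0.16) and WT (-0.27 ± 0.16), and neither passed (adjusted p = 0.52 and 0.66). In KO the groups did not overlap. Cdc20, an activator of the same complex, read 11.29, 11.13 and 10.82 in caudal KO, 11.52, 11.16 and 10.85 in caudal WT, 11.35, 11.52 and 11.34 in rostral KO, and 11.31, 11.38 and 11.04 in rostral WT. It separated the regions in KO, by -0.33 ± 0.15 (adjusted p = 0.39), and had -0.07 ± 0.15 in WT. Its difference between KO effects was -0.26 and did not pass, so WT and KO are not shown to differ here.

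Anln, which builds the cleavage furrow, read 8.41, 8.46 and 8.22 in caudal KO, 8.51, 8.25 and 7.86 in caudal WT, 8.46, 8.53 and 8.57 in rostral KO, and 8.54, 8.62 and 8.19 in rostral WT. Its caudal minus rostral difference in WT was -0.24 ± 0.16 (adjusted p = 0.71). Ect2, which activates the furrow, had -0.21 ± 0.14 in the average, and both cytokinesis genes were above 0 in KO against WT, by 0.11 and 0.13, without passing.

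The probe sets of the members were also counted one by one. Of 118 probe sets, 105 were bright enough to test. In caudal against rostral cortex 94 of the 105 were below 0, and in KO against WT 66 were. By gene, 55% and 53.1% of all tested genes were below 0 in these comparisons. Shares over all tested probe sets were not counted, for the signs here or for the agreement below. Among the 37 genes with several tested probe sets, all of a gene's probe sets had one sign for 28 genes between regions and for 16 genes between genotypes.

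Other genes of the cycle were read in the same way. Of 55 further S phase genes, 43 were below 0 in caudal against rostral cortex (median -0.11), and of 64 further G2 and M phase genes, 55 were (median -0.16). The smallest adjusted p-values were those of E2f2, an E2F factor (-0.90 ± 0.26, adjusted p = 0.071), and of Sgo2a, a protector of centromeric cohesion (-0.34 ± 0.11, 0.094). Among the 14 DREAM and E2F regulators 12 were below 0, led by Rbl1, the pocket protein p107 (-0.29 ± 0.08, 0.070). None of the 3 lists had a gene past the threshold between regions, where 8, 15 and 2 genes were lower at an unadjusted p under 0.05, against 11.1% of all genes; 55% of all genes were below 0. In KO against WT none passed either; 38 of 55, 32 of 64 and 6 of 14 were below 0, with medians of -0.03, 0.00 and 0.07, against 53.1% of all genes below 0.

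The differences were also read by promoter motif. In caudal against rostral cortex, members with a CHR in a window had a median of -0.18 (23 of 23 below 0), and members without one had -0.22 (19 of 20 below 0). Members with an E2F match had a median of -0.17 (11 of 11), and those without had -0.19 (31 of 32). Members with a CCAAT box had -0.18 (32 of 32), and those without had -0.21 (10 of 11). In KO against WT the medians were -0.05 with and -0.04 without a CHR, and -0.04 with and -0.05 without an E2F match. For CCAAT they were -0.05 with and -0.02 without. Of members with a window, 19 of 24 of G2 and M phase and 4 of 20 of S phase held a CHR, so that split partly repeats the phases. None of these differences between members with and without a motif was tested.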

How the data were processed

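Transcript levels were measured on 12 arrays in 4 groups of 3. Per the labels' protocols, total RNA was extracted with a column kit including DNase treatment and amplified in a single round. The authors deposited log2 values for 45101 probe sets per array; this scale is inferred from their range, and the background correction and normalisation are not given in the sources used here. Of the probe sets, 34958 name 1 gene, 932 several and 9211 none in the platform annotation; those naming 1 gene were used. A probe set was tested when it exceeded 5.21, the median of the table, on at least 3 arrays, and the tested probe set of highest mean stood for its gene, giving 11785 genes.

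All arrays entered 1 fit in limma 3.58.1 (R 4.3.3) with a mean per group; variances were moderated along the intensity (residual degrees of freedom 8, prior 5.37). The 7 comparisons were two-sided, with Benjamini-Hochberg adjustment over all genes, a threshold of 0.05, and errors given as standard errors (SE). The fit was tested on simulated data. Alternatives changed the normalisation, the filter, the floor, the probe set rule, the moderation, array weights, the samples in the fit and the threshold, and added a block or an Xist covariate. Promoter windows were searched with Python 3.11.15. The members, gene lists, comparisons and alternatives were chosen with earlier results of these data known. Members given array by array were those of smallest p, 3 per list and comparison, and Mki67, Top2a, Cdk1, Pcna and Mcm2; the others are given by role. Animal numbers differ between all arrays, and whether replicates are separate litters is not stated, so p-values measure the spread between these samples.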

Additional observations from a re-analysis of the deposited data

How the results depend on the processing

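With each array left out in turn, 0 to 1 S phase and 0 to 1 G2 and M phase members passed between regions in the average, and 0 to 1 S phase members in KO; no member passed in the other comparisons. The calls came without caudal KO animal 1 (Rrm2), caudal KO animal 2 (Uhrf1), caudal WT animal 4 (Uhrf1 and Nek2) and, in KO, caudal WT animal 4 or 14 (Uhrf1). Between regions in the average, array weights gave 1 S phase call (Uhrf1), each probe set on its own 1 (Mcm2), and animals 13 to 16 as a block 2 S phase and 2 G2 and M phase calls. In KO, array weights, the block, only the groups compared, the fit without WT animals 4, 14 and 12, and each probe set on its own gave 1 S phase call each. At an adjusted p under 0.10, 2 S phase members were called between regions in the average and 1 in KO. In the fit by group alone, 4.46% of all genes passed 0.05 between regions in the average and 0.95% in KO. Apart from the block, the share of all genes called under these settings was not counted. The member counts can therefore not be set against it. At an unadjusted p under 0.05, the counts of S and of G2 and M phase members were 5 and 6 between regions in the average, 4 and 2 in KO and 1 and 1 in WT; for KO minus WT they were 0 and 1 in the average, 1 and 0 caudally and 0 and 1 rostrally. The fit without WT animals 4, 14 and 12 and the values of animals 13 to 16 alone were chosen after the data were seen.

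The regional medians stayed below 0 under all alternatives, from -0.22 to -0.12 for S phase and from -0.32 to -0.13 for G2 and M phase genes in the average; in WT alone they came as near to 0 as -0.04 and -0.03. The KO minus WT medians crossed 0, from -0.07 to 0.10 and from -0.13 to 0.11 in the average, as they did in each region, and the medians of the difference of KO effects ran from -0.15 to 0.06 and from -0.21 to 0.09. Signs turned for differences that passed in no setting of the same result, except caudal minus rostral of Mcm2, whose second probe set passed; the cause was not tested. With the mean of the probe sets, KO minus WT was 0.13 for Mcm6 and -0.16 for Mcm5 rostrally and 0.10 for Mcm2 and 0.20 for Top2a in the average, and the difference of KO effects was 0.25 for Cdc20. Without WT animals 4, 14 and 12, KO minus WT was 0.0167 for Rrm1, -0.0240 for Pcna, 0.13 for Top2a and 0.33 for Mki67, and caudal minus rostral was 0.0099 for Mcm2 and 0.0348 for Cdk1. For Pcna, KO minus WT was -0.0025 with quantile normalisation, -0.0010 with array weights and -0.0173 in animals 1 to 12. Caudal minus rostral was 0.0129 for Top2a and 0.0035 for Mki67 with array weights, 0.0314 and 0.0133 in animals 1 to 12, and 0.0617 and 0.16, with 0.0460 for Cdk1, without animals 6 and 12. With each array left out, KO minus WT ran from -0.0221 to 0.0266 for Pcna, -0.0802 to 0.0659 for Top2a and -0.17 to 0.13 for Mki67, and caudal minus rostral from -0.0917 to 0.0423 for Cdk1, -0.10 to 0.0441 for Top2a and -0.16 to 0.14 for Mki67.

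No paired analysis was possible because no 2 arrays share an animal number. With 3 arrays a group, the 95% interval of a single region's KO minus WT difference exceeded a fold of 1.5 for some members. For those members a change of that size is not excluded. Mki67, Fen1 and Tyms had wide intervals, and Tyms lay near the median of the table.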
